A study of Rattus norvegicus with 6 samples.

Results

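Mitochondrial biogenesis is the making of new mitochondria, and 10 genes of its transcriptional control were examined in rat myocardium after 30 min of ischemia. The genes were picked by symbol as the coactivators Ppargc1a and Ppargc1b, the estrogen-related receptors Esrra, Esrrb and Esrrg, the nuclear respiratory factors Nrf1 and Gabpa, the mitochondrial transcription factor Tfam, and the fatty acid receptors Ppara and Ppard. All 10 were found among the 32623 genes listed, with 1 row each, and all 10 were among the 13964 genes tested. Total RNA had been sequenced in 3 sham samples and in 3 ischemia samples taken after a coronary artery, the left anterior descending, was tied, with the rats described as male and wild type (WT). The labels give 30 min for both groups and describe thoracotomy under anesthesia, and no ligation is described for sham. Which piece of the heart was taken, the strain and the age are not given in the sources used here. Each sample is labelled as a separate replicate without an animal number, so p-values measure the spread between these samples, which may be technical.

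Mitochondria need proteins from both the nuclear and the mitochondrial genome, and these regulators coordinate them. The coactivators PGC-1α (Ppargc1a) and PGC-1β (Ppargc1b) bind no DNA themselves but dock on nuclear receptors and on NRF1, which then activate genes of the respiratory chain and of fatty acid oxidation. NRF1 and the GABP complex in turn drive Tfam, whose protein enters the mitochondrion to package and transcribe its DNA. The adult heart, which burns mainly fatty acids, depends on this circuit through the estrogen-related receptors and PPARα.

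Stretches before the gene starts of Ppargc1a, Ppara and Tfam are shown because the levels of these 3 genes did not overlap between the groups and because each carries the letters of a well-known control element. They come from RefSeq on the build GRCr8, are read 5′ to 3′ on the plus strand that each gene uses, and have 40 bases on each side of the match, which is in capitals. In Ppargc1a (chr14:63634087-63634174) the capitals are a cAMP response element, TGACGTCA, from 181 to 174 bases before the start. In Ppara (chr7:118712468-118712555) they are the core of the NRF1 motif, CGCATGCG, from 99 to 92 bases before it. In Tfam (chr20:17355277-17355363) they are the ETS motif CCGGAAG that GABPA recognizes, from 56 to 50 bases before it.
Ppargc1a: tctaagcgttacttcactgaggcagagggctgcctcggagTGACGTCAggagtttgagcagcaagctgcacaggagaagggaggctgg
Ppara: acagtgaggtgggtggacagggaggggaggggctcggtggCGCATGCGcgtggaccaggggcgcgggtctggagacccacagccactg
Tfam: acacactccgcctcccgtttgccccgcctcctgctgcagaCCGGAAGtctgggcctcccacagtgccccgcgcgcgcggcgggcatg

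The search took 250 bases before each start on both strands, and 9 of the 10 genes had such a stretch, Esrrg with 4 starts. Ppard was not in the table of starts. The cAMP element was present in 1.59% of the 33469 stretches of all genes and the NRF1 core in 1.47%. The ETS motif was present in 7.27%, and Gabpa carried it as well as Tfam. The estrogen-related receptor motif TCAAGGTCA, present in 0.388% of all stretches, was in none of those of the 10 genes. These matches describe letters and do not show binding.

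Before the regulators were compared, the libraries were compared by their cell type markers, because some stood apart. Total counts ranged from 68529126 to 79591989 per sample, so that 3 counts correspond to between 0.0377 and 0.0438 CPM (counts scaled to library depth), for counting error only. Of 10 genes listed for ventricular cardiomyocytes, 9 were found. Their summed FPKM (fragments scaled to transcript length and library depth) ranged from 25662 to 42804 in sham and from 12045 to 23481 in ischemia. Sham replicate 2 was the highest and ischemia replicate 2 the lowest in this sum, to which its genes contributed unequally across libraries. Myl2 had an FPKM of 366, 2795 and 346 in sham, against 1315, 594 and 1238 in ischemia, and Myl3 had 796, 9024 and 1021, against 5691, 3180 and 5780. Both of these ventricular light chain genes were thus highest in sham replicate 2 and lowest in sham replicates 1 and 3, the libraries highest in atrial Myl7. In sham replicates 1 and 3 both genes were below every ischemia sample, where the sum was above. The sum is thus not a measure of ventricular tissue alone. The 12 neutrophil and monocyte genes summed to between 110 and 191 in sham and between 1282 and 8833 in ischemia, again with ischemia replicate 2 at the end, and 10 of the 12 passed the edgeR test as higher. The atrial light chain gene Myl7 had an FPKM of 6530 in sham replicate 1, 3541 in sham replicate 3 and 764 in ischemia replicate 1, against 117 in sham replicate 2, 12.3 in ischemia replicate 3 and a still lower value in ischemia replicate 2. Sham replicate 3 also carried adipocyte genes. Ucp1 of brown fat had an FPKM of 0.165, 16.4 and 111 in sham, against at most 0.206 in ischemia, so sham replicate 2 carried it too. The 7 white adipocyte genes summed to 682 in sham replicate 3, against 51.6 and 85.4 in the other sham samples and 32.6, 10.7 and 6.05 in ischemia. The 6 fibroblast genes found summed to 1128, 687 and 2237 in sham, against 690, 327 and 301 in ischemia. Adipocyte sums were thus lower in every ischemia sample and fibroblast sums overlapped, and the part of these cells in the regulators' values was not tested. The 3 Y-linked genes found summed to 0.110 in sham replicate 1 and to between 6.71 and 21.2 in the others, although the rats were described as male. In bulk tissue, fewer cells of a type and less RNA per cell cannot be told apart.

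The first question was how abundant each regulator was. In sham myocardium Esrra was the most abundant of the 10, at an FPKM of 53.1 ± 13.8 (SD, n = 3), followed by Tfam at 24.4 ± 3.60 (SD, n = 3) and Ppard at 11.2 ± 2.31 (SD, n = 3). The samples of these 3 genes did not overlap each other or the next gene. The remaining 7, Nrf1, Esrrg, Ppargc1a, Ppara, Ppargc1b, Gabpa and Esrrb, had sham means from 5.43 down to 3.35, and each neighbour in that order overlapped the next. In ischemia the order changed below Ppard. Nrf1 at 7.38 ± 3.15 (SD, n = 3) and Gabpa at 4.42 ± 1.70 (SD, n = 3) then preceded Ppargc1a, Esrrg, Ppara, Esrrb and Ppargc1b, whose means ran from 2.24 to 1.34. From Ppard down each neighbour overlapped the next in ischemia, as did Esrra and Tfam.

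**Figure D1:**
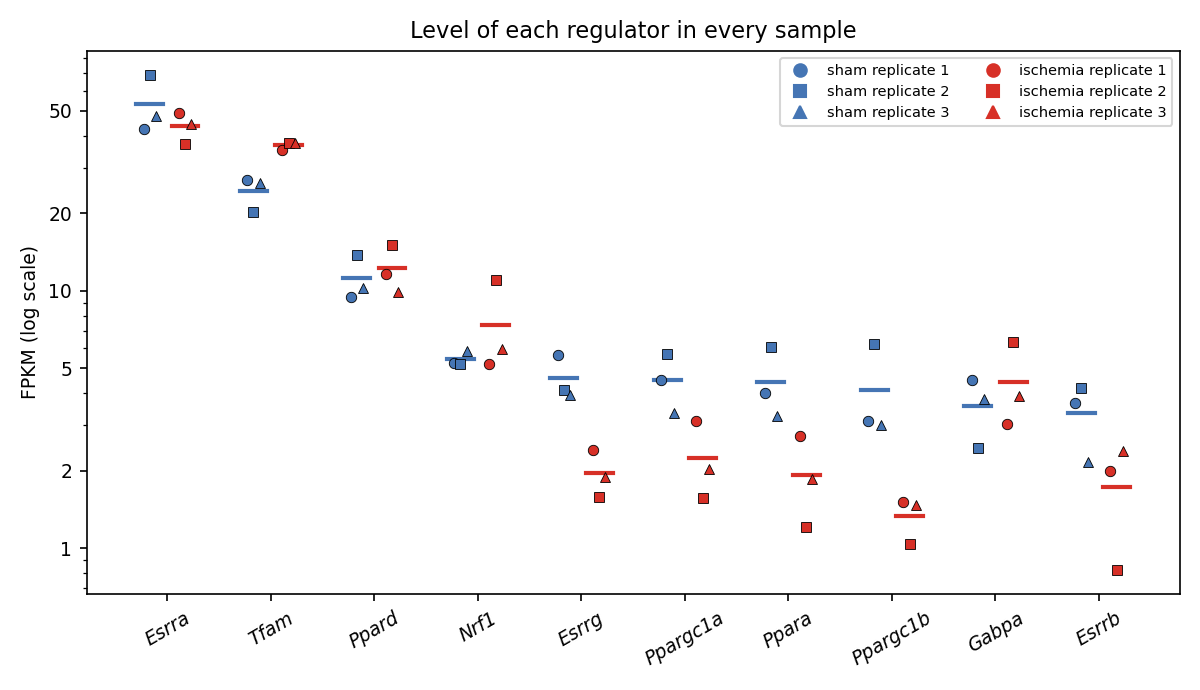
FPKM of the 10 regulators on a log axis, ordered by the sham mean, with sham in blue, ischemia in red, a marker shape for each replicate and a bar for the group mean. Ischemia lies wholly below sham for Esrrg, Ppargc1a, Ppara and Ppargc1b and wholly above it for Tfam, while the other 5 genes overlap.

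The main question was which regulators differed after ischemia. Esrrg fell, at a log2 fold change of -1.30 ± 0.27 (SE, 3 against 3 samples, edgeR adjusted p 0.0445), and it was the 1 regulator of 10 past an adjusted p of 0.05. Of all tested genes, 1.53% passed as lower and 5.18% as higher. None of the 10 passed as higher in edgeR, while at an unadjusted p under 0.05 there were 4 lower and 1 higher, where 32.4% of all genes passed in either direction. Ischemia and sham samples did not overlap for 4 lower regulators, Ppargc1a, Ppargc1b, Esrrg and Ppara, and for 1 higher one, Tfam. Over all tested genes, 15.0% did not overlap as lower and 23.6% as higher. The same 5 genes passed an adjusted p of 0.05 in DESeq2, 4 as lower and 1 as higher, in a test that called 12.6% of genes lower and 14.9% higher. A size limit like the one the study describes, an absolute log2 fold change above 2 with an unadjusted p under 0.01, was met by 0 regulators and by 4.65% of tested genes. Across the 10 the log2 fold changes ran from -1.76 to 0.51 with a median of -0.72 and 7 below 0, beside a median of -0.0015 and 50.1% below 0 over all tested genes. The median was -0.37 without sham replicate 2 and -0.48 without ischemia replicate 2.

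**Figure D2:**
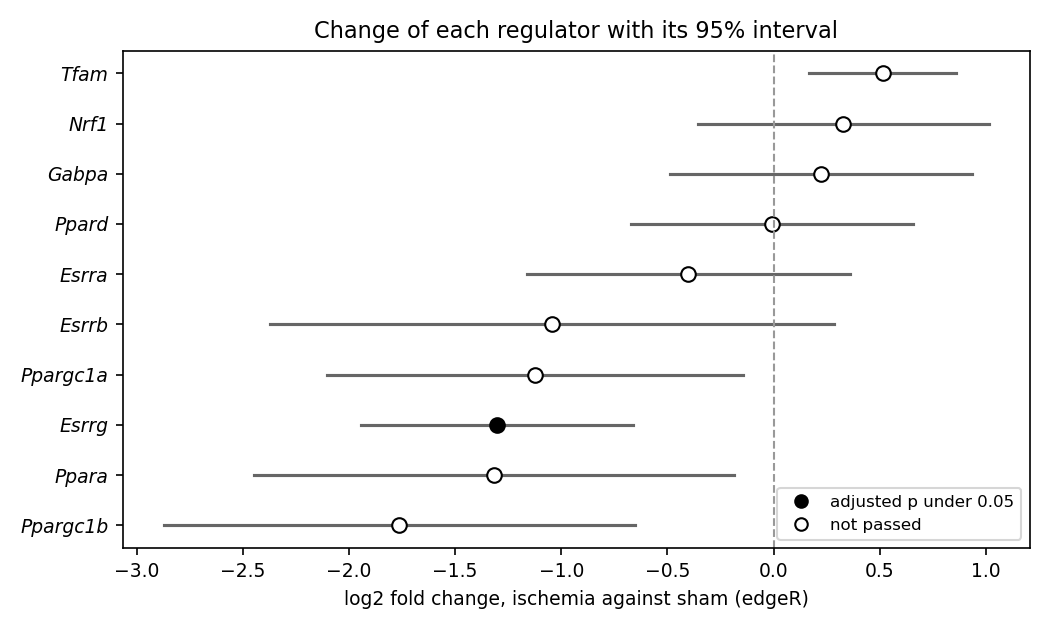
The edgeR log2 fold change of ischemia against sham for each regulator, with its 95% interval as a line. The intervals of Ppargc1b, Ppara, Esrrg and Ppargc1a lie below 0 and that of Tfam above it, and the filled point marks Esrrg, the gene past the adjusted threshold.

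Among the coactivators, Ppargc1a (ENSRNOG00000004473) is listed at chr14:63095720-63187009, plus strand. The build of this and the following gene positions is not given in the sources used here, so they cannot be set beside the GRCr8 stretches. Sham FPKM was 4.50, 5.68 and 3.35 for replicates 1, 2 and 3, against 3.11, 1.57 and 2.03 for the ischemia replicates in the same order, from counts between 323 and 1259. Every ischemia sample was below every sham sample, although sham replicate 3 and ischemia replicate 1 were close. The log2 fold change was -1.12 ± 0.41 (SE) with a 95% interval from -2.10 to -0.14, and the edgeR adjusted p of 0.121 did not pass. In DESeq2 the adjusted p was 0.0420.

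Ppargc1b (ENSRNOG00000017503, chr18:56626712-56728968, minus strand) encodes the related coactivator PGC-1β and showed the largest difference of the 10 in edgeR. Its FPKM was 3.13, 6.24 and 3.01 in sham, against 1.51, 1.04 and 1.47 in ischemia. The groups lay well apart, and the ischemia mean was 32.4% of the sham mean. In edgeR the log2 fold change was -1.76 ± 0.46 (SE) with a 95% interval from -2.87 to -0.65 and an edgeR adjusted p of 0.0655, against 0.00284 in DESeq2. Without sham replicate 2, the highest sample, the edgeR log2 fold change was -1.17, and Esrrg then showed a larger difference, at -1.27. Summed over both genes, the FPKM was 7.63, 11.9 and 6.36 in sham, against 4.63, 2.61 and 3.50 in ischemia. The ratio of Ppargc1b to Ppargc1a was 0.696, 1.10 and 0.900 in sham, against 0.486, 0.659 and 0.725 in ischemia, so that the groups overlapped in it.

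The estrogen-related receptors are orphan nuclear receptors that PGC-1 coactivates on genes of oxidative metabolism, and their 3 genes differed in level and in change. Esrrg (ENSRNOG00000002593, chr13:106463368-106683436, plus strand) encodes ERRγ, a receptor of the maturing and adult heart. It had an FPKM of 5.66, 4.14 and 3.96 in sham, against 2.42, 1.58 and 1.89 in ischemia. Ischemia samples were at 42.8% of sham on average and none overlapped. The 95% interval of the log2 fold change ran from -1.94 to -0.66. Its adjusted p lay close to the threshold, at 0.0651 without ischemia replicate 2 and 0.0271 without ischemia replicate 1 in edgeR. Esrrg passed in 6 of 17 alternatives, with adjusted p up to 0.167. Without sham replicate 1, 2 or 3 or ischemia replicate 3 no gene of the 13964 passed, so the loss of the call there says nothing about Esrrg, and its log2 fold change in those fits was -1.18, -1.27, -1.44 and -1.31.

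Esrra (ENSRNOG00000021139, chr1:222168730-222178725, minus strand) encodes ERRα, the most abundant receptor here. Its FPKM was 42.7, 68.7 and 47.8 in sham, against 49.0, 37.3 and 44.6 in ischemia. Apart from the high value of sham replicate 2, the groups overlapped throughout. On the log2 scale the fold change was -0.40 with a 95% interval from -1.16 to 0.36, and it was -0.030 without sham replicate 2 (edgeR adjusted p 0.944).

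Esrrb (ENSRNOG00000010259, chr6:110410141-110455906, plus strand) encodes ERRβ and was the least abundant receptor in sham. Its FPKM was 3.66, 4.21 and 2.17 in sham, against 1.99, 0.827 and 2.38 in ischemia, and sham replicate 3 overlapped ischemia. The log2 fold change was -1.04 with a 95% interval from -2.37 to 0.28 (edgeR adjusted p 0.230). As a share of the summed FPKM of the 3 receptors, Esrra made up 82.1%, 89.2% and 88.7% in sham, against 91.7%, 93.9% and 91.3% in ischemia. The share of Esrra was thus higher in every ischemia sample, while Esrrg had 10.9%, 5.37% and 7.33% in sham, against 4.53%, 3.98% and 3.86% in ischemia.

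The nuclear respiratory factors bind the promoters of many respiratory chain genes, and neither Nrf1 nor Gabpa differed beyond the spread of the samples. Nrf1 (ENSRNOG00000008752, chr4:57378069-57445341, plus strand) had an FPKM of 5.24, 5.20 and 5.86 in sham, against 5.21, 11.0 and 5.93 in ischemia. Ischemia replicates 1 and 3 were at the sham level and replicate 2 was alone above it. The log2 fold change was 0.33 with a 95% interval from -0.35 to 1.01 (edgeR adjusted p 0.443), and -0.0058 without ischemia replicate 2.

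Gabpa (ENSRNOG00000053205, chr11:24263281-24322815, plus strand), which encodes the DNA-binding subunit of the GABP complex, showed the same single high sample. Its FPKM was 4.51, 2.45 and 3.79 in sham, against 3.03, 6.31 and 3.92 in ischemia, with a log2 fold change of 0.22 and a 95% interval from -0.49 to 0.93 (edgeR adjusted p 0.619). Without ischemia replicate 2 it was -0.055. That library also had the highest sum of neutrophil and monocyte genes, and the part of these cells in the values of Nrf1 and Gabpa was not tested.

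Tfam stood on the other side of 0 from the coactivators. The gene (ENSRNOG00000000613, chr20:18594037-18606151, plus strand) was measured at an FPKM of 26.9, 20.3 and 26.2 in sham, against 35.2, 37.7 and 37.4 in ischemia. All ischemia samples were above all sham samples and lay within a narrow range, with a mean of 36.8 ± 1.33 (SD, n = 3). The log2 fold change was 0.51 ± 0.14 (SE) with a 95% interval from 0.17 to 0.86. The edgeR adjusted p was 0.0753 and did not pass, against 0.00353 in DESeq2. The sum of neutrophil and monocyte genes was also higher in every ischemia sample and highest in ischemia replicate 2. The part of these cells in the level of Tfam was not tested, while without that replicate the log2 fold change of Tfam was 0.54. The ratio of Tfam to the sum of both PGC-1 genes was 3.52, 1.70 and 4.11 in sham, against 7.62, 14.4 and 10.7 in ischemia. The mitochondrial genome, which TFAM helps to transcribe, took 16.1%, 21.4% and 15.4% of counts in sham, against 18.4%, 15.7% and 18.7% in ischemia, so that the groups overlapped.

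Among the fatty acid receptors, Ppara (ENSRNOG00000021463, chr7:126619196-126681752, plus strand) encodes PPARα, which switches on fatty acid oxidation in the heart. Its FPKM was 4.02, 6.04 and 3.27 in sham, against 2.73, 1.21 and 1.87 in ischemia. No samples overlapped, and the lowest value was again in ischemia replicate 2. The fold change on the log2 scale was -1.32 ± 0.47 (SE) with a 95% interval from -2.45 to -0.19. The edgeR adjusted p was 0.118 and that of DESeq2 0.0353.

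Ppard (ENSRNOG00000000503, chr20:7818289-7885333, plus strand) encodes PPARδ, a relative with targets in common. Its FPKM was 9.50, 13.8 and 10.3 in sham, against 11.6, 15.1 and 9.89 in ischemia. The groups overlapped, with a log2 fold change of -0.0070 and a 95% interval from -0.67 to 0.66. The ratio of Ppard to Ppara was 2.36, 2.29 and 3.14 in sham, against 4.26, 12.6 and 5.30 in ischemia, higher in each ischemia sample.

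**Figure D3:**
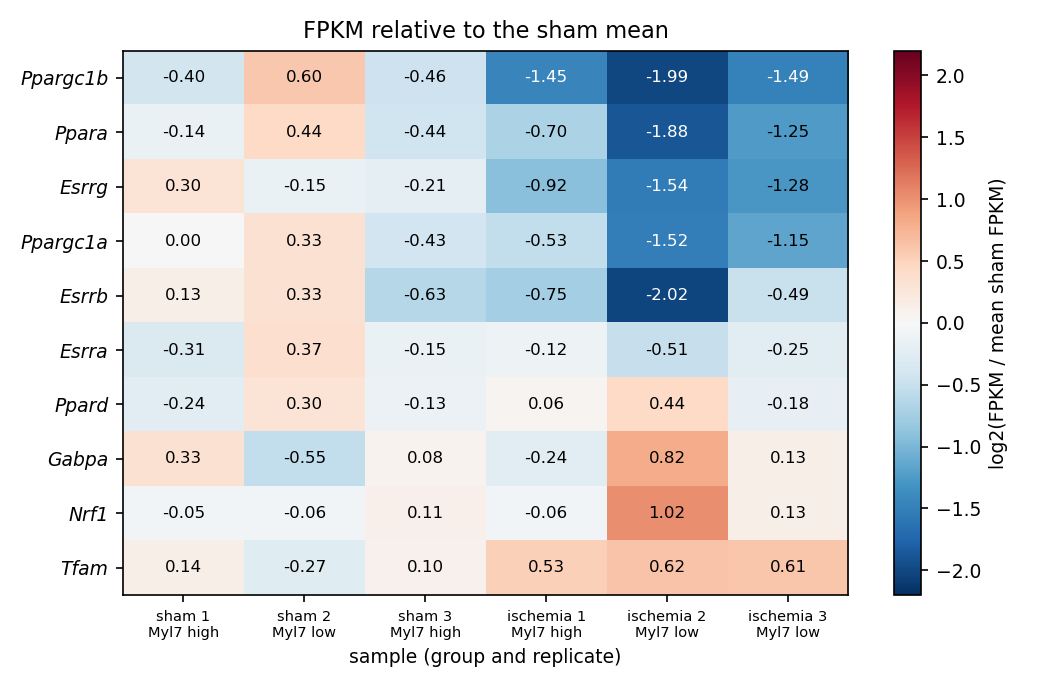
Each cell gives log2 of the FPKM over the mean sham FPKM of that gene, for the 10 regulators (rows) in the 6 samples (columns), blue below and red above the sham mean, with each library marked by whether Myl7 was above an FPKM of 500. Esrrb, Ppargc1b, Ppara, Esrrg, Ppargc1a and Esrra were lowest in ischemia replicate 2, at -2.02, -1.99, -1.88, -1.54, -1.52 and -0.51, where Nrf1, Gabpa, Tfam and Ppard were highest, at 1.02, 0.82, 0.62 and 0.44.

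The summed cardiomyocyte list moved with several of the regulators across libraries. Ppargc1a, Ppargc1b, Ppara, Esrra and Esrrb were highest in sham replicate 2, the library with the highest sum, and these 5 genes and Esrrg were lowest in ischemia replicate 2, the library with the lowest. Tfam ran the other way in FPKM, lowest in sham replicate 2 and highest in ischemia replicate 2, with ischemia replicate 3 close to it. In CPM with the scaling used for edgeR, Tfam was 40.8, 38.2 and 39.2 in sham, against 54.6, 53.6 and 60.5 in ischemia. On that scale ischemia replicate 2 was the lowest of the ischemia samples. Single genes of the list did not all follow the order of the sum, Myl2 and Myl3 being higher in ischemia replicate 2 than in sham replicates 1 and 3. When each FPKM was divided by the sum of the 9 genes, whose makeup differed between libraries, the median log2 ratio of ischemia over sham over all tested genes moved from 0.084 to 0.87, and the regulators have to be read against that shift. On this scale Ppargc1b (-0.80) and Ppara (-0.47) were still lower in every ischemia sample. Ppargc1a (-0.27) and Esrrg (-0.52) had log2 ratios below 0 but overlapped. As many as 3 regulators were wholly higher, namely Tfam at 1.35, Ppard at 1.04 and Esrra at 0.52. Of all tested genes 2.34% did not overlap as lower on this scale and 38.4% as higher.

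Ppargc1b had 1.15, 1.46 and 1.17 FPKM per 10000 FPKM of the 9 summed genes in sham, and 0.644, 0.860 and 0.662 in ischemia. The same quantity for Ppargc1a was 1.65, 1.33 and 1.30 in sham, against 1.33, 1.30 and 0.914 in ischemia. The separation of Ppargc1b thus remained on this scale and that of Ppargc1a did not.

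The libraries above and below an FPKM of 500 of Myl7 were also compared apart, without a test, since each kind held 1 or 2 libraries of a group. Atrial genes were not equal within a kind. Myl7 stayed higher in sham than in ischemia in both, as did Myl4, Sln and Mybphl of the atrial list. Where Myl7 was low, Myl4 and Mybphl differed little. Nppa of that list was instead 67.7 in sham replicate 2, against 2051 and 1251 in ischemia replicates 2 and 3. Among those with low Myl7 (sham replicate 2 against ischemia replicates 2 and 3), the log2 ratio of mean FPKM was -2.32 for Ppargc1b, -1.98 for Ppara, -1.66 for Ppargc1a and -1.25 for Esrrg. Among those with high Myl7 (sham replicates 1 and 3 against ischemia replicate 1) it was -1.02, -0.41, -0.33 and -0.99. Direction was kept in both for these 4 genes, and Esrrg moved least between them. Tfam, at 0.89 and 0.41, and Esrrb, at -1.39 and -0.55, also kept their signs. By contrast Gabpa had 1.06 and -0.45, Nrf1 0.70 and -0.090, Esrra -0.74 and 0.11, and Ppard -0.14 and 0.24, each with opposite signs. The part of atrial tissue in these values was not tested.

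The wider pathway was described with lists of upstream regulators, partners, mitochondrial DNA genes and targets. Of 18 genes listed upstream of PGC-1, Sirt1 and Prkag1 were not found. AMPK subunits, the mitochondrial sirtuin gene Sirt3, CREB and MEF2 factors and corepressors were among the 16 tested, and 0 passed an edgeR adjusted p of 0.05. Without adjustment 2 were higher and 3 lower, and DESeq2 called 1 higher and 2 lower. Their median log2 fold change was -0.10 and ranged from -0.26 to 0.0099 with single samples left out. Prkag2, an AMPK subunit that binds AMP, had the lowest value, -1.85 ± 0.52 (SE, edgeR adjusted p 0.0762), with an FPKM of 31.7, 6.80 and 36.9 in sham and between 6.84 and 7.33 in ischemia. Its high values were in the 2 sham libraries with the highest Myl7. Creb1, the factor that binds cAMP response elements, had the highest, 0.97 (edgeR adjusted p 0.204), with an FPKM of 5.86 in ischemia replicate 2 against 2.03 in ischemia replicate 1, and its log2 fold change was 0.35 without ischemia replicate 2. The most abundant gene of the list was Prkab1, another AMPK subunit, at 48.2 in sham, against 35.1 in ischemia on average.

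Of the 16 partners and related coactivators, all tested, 1 rose and 2 fell in edgeR, and their median was -0.40. At an unadjusted p under 0.05, 1 was higher and 6 lower, and DESeq2 called 1 higher and 6 lower. Without sham replicate 2 the median was -0.19. Pprc1, the third member of the PGC-1 family and a coactivator of NRF1, rose. Its FPKM was 4.34, 4.63 and 5.58 in sham, against 10.2, 17.3 and 14.5 in ischemia, a log2 fold change of 1.43 ± 0.23 (SE, edgeR adjusted p 0.0339). It too was highest in ischemia replicate 2, the library highest in neutrophil and monocyte genes, whose part was not tested, and without that library the log2 fold change was 1.31. Thrb, a thyroid hormone receptor, fell by 1.62 on the log2 scale (edgeR adjusted p 0.0450), from 8.49, 4.85 and 6.15 in sham to 3.04, 1.49 and 2.07, and passed in 8 of 17 alternatives, with adjusted p up to 0.165. Ncoa1, a general coactivator of nuclear receptors, fell by 0.95 (edgeR adjusted p 0.0494) but passed in 5 of 18 alternatives, with adjusted p up to 0.170. Perm1, a muscle protein induced by PGC-1 and ERR, had the lowest value, with 48.8, 102 and 37.7 in sham, against 25.2, 5.12 and 10.2 in ischemia. By its mean it was the most abundant partner in sham, a rank that rested on sham replicate 2. Its log2 fold change of -2.36 ± 0.75 (SE) did not pass (edgeR adjusted p 0.0942). It was -1.64 without sham replicate 2, and it passed at -3.18 without ischemia replicate 1 (edgeR adjusted p 0.0403), where 1490 genes of the whole table passed as higher and 1115 as lower.

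Genes that transcribe and maintain mitochondrial DNA beside Tfam had a median log2 fold change near 0. Of 19 tested genes of 20, 0 passed in edgeR, 4 were higher and 2 lower at an unadjusted p under 0.05, DESeq2 called 3 higher and 1 lower, and the median was 0.092, or from -0.029 to 0.13 with single samples left out. The highest was Top1mt, the mitochondrial topoisomerase, at 0.86 (edgeR adjusted p 0.0753), and the lowest Mterf2, a factor that binds the mitochondrial genome, at -1.02 (0.149 in edgeR). Both passed without ischemia replicate 1, with edgeR adjusted p of 0.0445 and 0.0443. Lonp1, the mitochondrial protease that can degrade TFAM, was the most abundant and had 0.092.

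Targets of the regulators were described in 2 lists. Among 15 tested PPAR target genes of the heart, 2 rose and 0 fell in edgeR, and the median was -0.28. Without adjustment 3 were higher and 1 lower, and DESeq2 also called 3 higher and 1 lower. The median changed sign when 1 library was left out, to 0.29 without sham replicate 2 and 0.031 without ischemia replicate 2, and it was -0.68 without ischemia replicate 1, with 12 of 15 below 0. Angptl4, a secreted inhibitor of lipoprotein lipase, had an FPKM of 0.736, 1.30 and 2.82 in sham, against 140, 76.5 and 99.1 in ischemia (log2 fold change 5.96 ± 0.61 SE, edgeR adjusted p 0.0246). Plin2, a coat protein of lipid droplets, went from 73.1, 60.0 and 58.2 to 241, 323 and 206 (1.91 ± 0.22 SE, edgeR adjusted p 0.0272). Pdk4, a mitochondrial kinase that inhibits pyruvate dehydrogenase, is named after its values were seen, as the third gene of the list higher in every ischemia sample. Its FPKM was 20.7, 12.2 and 11.7 in sham, against 85.6, 32.4 and 122 in ischemia, and its log2 fold change of 2.38 ± 0.54 (SE) did not pass (edgeR adjusted p 0.0511). Acsl1, which activates fatty acids for oxidation, had the lowest value, -1.85 ± 0.57 (SE, edgeR adjusted p 0.0891), and passed at -2.49 without ischemia replicate 1 (edgeR adjusted p 0.0350). Fabp3, the abundant fatty acid carrier of the heart, had -1.16 (0.286 in edgeR), or -0.18 without sham replicate 2.

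Of the 15 targets of NRF1, GABP and the estrogen-related receptors, with Esrra among them, 14 had log2 fold changes below 0 and 0 passed in edgeR. Their median was -0.48, 3 were lower at an unadjusted p under 0.05, and DESeq2 called 1 lower. Ndufs1, a subunit of complex I, had the lowest value, -0.98 (edgeR adjusted p 0.138), and the import receptor gene Tomm20 the highest, 0.23. Atp5f1b, the catalytic subunit of ATP synthase, had the highest level, at 3898 ± 904 (SD, n = 3) in sham, against 3005 ± 986 (SD, n = 3) in ischemia. The summed FPKM of this list was 10243, 16618 and 10228 in sham, against 12410, 6397 and 10458 in ischemia, so that the groups overlapped. Without sham replicate 2 the median was -0.030 and 8 of 15 were below 0, and without ischemia replicate 2 the median was -0.26.

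**Figure D4:**
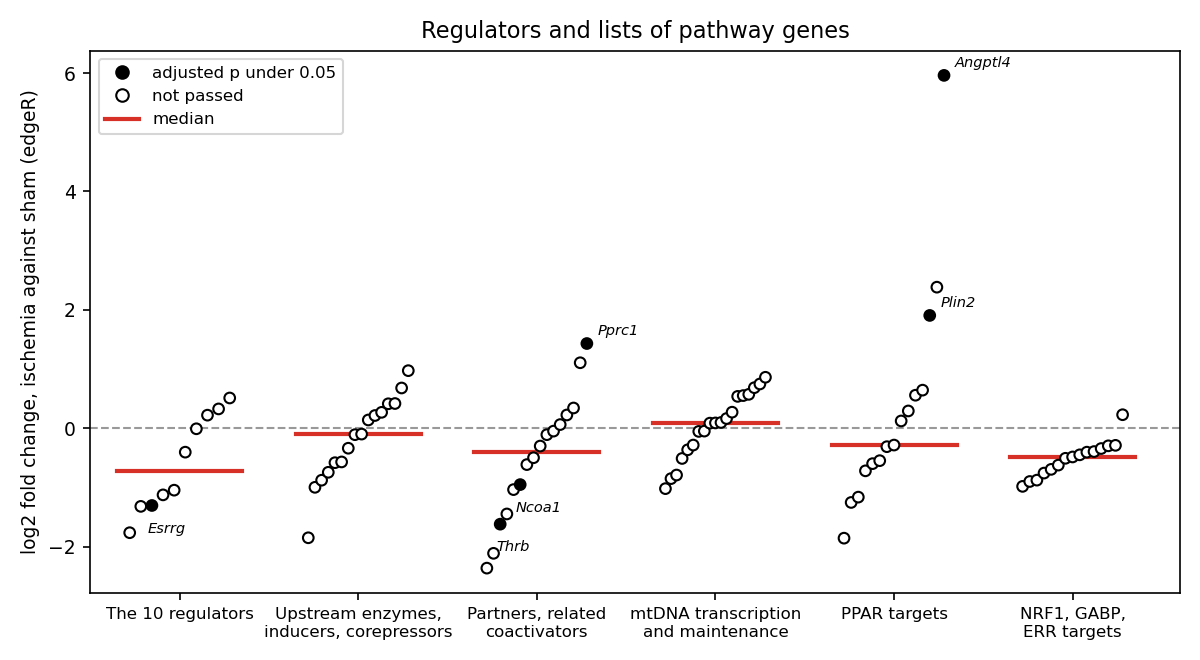
Each point is the edgeR log2 fold change of a tested gene, ischemia against sham, for the 10 regulators and the 5 lists of pathway genes, with filled points past an adjusted p of 0.05 and red bars at list medians. Angptl4, Plin2 and Pprc1 lie above 0 and Esrrg, Thrb and Ncoa1 below it among the filled points, and 14 of 15 targets of NRF1, GABP and the estrogen-related receptors lie below 0, against 8 of 15 without sham replicate 2.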

How the data were processed

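The table deposited by the authors held 32623 rat genes with Ensembl identifiers, and raw read counts and FPKM for each of 6 samples. The deposited counts are whole and unnormalized. The deposited FPKM values are the authors' own scaling to transcript length and sequencing depth, in which 0.0001 stands for no reads. Total RNA libraries were made with a kit that keeps strand. STAR and HTSeq are named in the submitters' processing notes, without versions, and the genome build is not given in the sources used here, so gene positions are as listed.

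All 13964 genes averaging 0.5 FPKM or more over the samples were tested with edgeR on the counts (quasi-likelihood F test), with TMM scaling and no covariate. Two-sided p-values received Benjamini-Hochberg adjustment across these genes, and 0.05 was the threshold. Standard errors came from the F statistic. An exact permutation test of 3 against 3 cannot give a p below 0.1, so none was used. The scripts were tested on simulated data with 200 genes changed by 2 on the log2 scale. The edgeR test recovered 42.5% of them, with 2 false among 87 calls, so not passing does not show that a gene was unchanged. In all, 18 alternatives were run, among them DESeq2, limma and each sample left out. The division by the summed ventricular cardiomyocyte list and the comparison by Myl7 level, with its limit of 500 FPKM, were chosen after seeing the data.

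The 10 genes and all lists were chosen with earlier results of these data known. Named beside the 10 were, from each pathway list, the genes past the adjusted threshold and those with the highest fold change, the lowest fold change and the highest level. Marker genes named were Myl7, Myl4, Sln, Mybphl, Nppa, Myl2, Myl3 and Ucp1, chosen after their values were seen. No FPKM or count column lacked a sample. Tests ran in R 4.3.3 with edgeR 4.0.16, DESeq2 1.42.0 and limma 3.58.1. Summaries used Python 3.11.15, and figures used matplotlib 3.10.9.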

Additional observations from a re-analysis of the deposited data

How the results depend on the processing

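The number of lower regulators past an adjusted p of 0.05, 1 in edgeR, was 4 in DESeq2, which also called 1 higher. It was 0 in limma on log2(FPKM + 0.01), log2(FPKM + 0.1) and log2(FPKM + 1), without an FPKM filter, with total-count scaling and at a mean FPKM of at least 5, where 4 regulators were tested. It ranged from 0 to 1 when single samples were left out, and without sham replicate 1, 2 or 3 or ischemia replicate 3 no gene of the table passed, with 3020 to 3809 genes at an unadjusted p under 0.05. With the replicate number as a block it was 0, as for the whole table, and same-numbered samples had correlations of deviations of -0.056, -0.094 and -0.196, so the numbers did not pair the samples. The block changed the call of no regulator other than Esrrg (edgeR adjusted p 0.110).

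Over the alternatives Esrrg ranged from -1.50 to -0.91, Ppargc1b from -1.998 to -1.08, Ppargc1a from -1.45 to -0.77, Ppara from -1.66 to -0.88 and Tfam from 0.46 to 0.60, without a change of sign. The median over the regulators was 0.12 at a mean FPKM of at least 5, which left out these genes other than Tfam, and from -0.93 to -0.37 when single samples were left out. Pprc1, Angptl4 and Plin2 each passed in 13 of 18 alternatives, Thrb in 8 of 17 and Ncoa1 in 5 of 18. Ppard changed sign, to 0.12 at both lower limma pseudocounts, 0.11 at a pseudocount of 1, 0.034 with voom, 0.0058 without a filter, 0.035 with the replicate block and 0.13 with total-count scaling, and ranged from -0.16 to 0.31 when single samples were left out. Nrf1 (-0.0058) and Gabpa (-0.055) changed sign without ischemia replicate 2, and over all samples left out in turn they reached 0.50 and 0.41. Divided by the summed cardiomyocyte list, groups did not overlap for 2 lower and 3 higher regulators, against 4 and 1. The cause of these changes was not tested.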
